A study of Mus musculus with 3 samples.

Results

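The 35 genes described here code for the working parts of the lysosome, the acidic compartment in which a macrophage breaks down what it has engulfed. They were chosen by name, without cathepsins, and comprise 6 membrane proteins, 16 luminal enzymes and their activators, 3 transcription factors and 10 parts of the proton pump. All 35 had a row among the 23997 genes measured, and all 35 reached a mean of at least 1 FPKM (fragments mapped to a gene, scaled to its transcript length and to the size of the library) over the 3 libraries, as did 11114 genes in all.

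A lysosome is acidified by the vacuolar ATPase, or V-ATPase, whose V1 sector in the cytosol burns ATP to turn the V0 sector in the membrane and so move protons inward. The acid activates hydrolases that cut sugars, lipids and proteins, while heavily glycosylated membrane proteins shield the limiting membrane. Many of these genes share an E-box element in their promoters, bound by the MiT/TFE transcription factors Tfeb, Tfe3 and Mitf, and macrophages, which clear dying cells and microbes in the gut wall, are known for a large lysosomal compartment.

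RNA was sequenced from macrophages sorted out of the colon of untreated male C57BL/6 mice, by absence of Siglec-F, low Ly6C and presence of CD64. The 3 genotypes were Tle4f/f Lyz2-Cre (Tle4cKO, 4 mice), Tle3f/f Lyz2-Cre (Tle3cKO, 3 mice) and Lyz2-Cre alone (WT, 4 mice). Lyz2-Cre, which every mouse carried, deletes floxed DNA across myeloid cells and not in macrophages alone, and Tle3 and Tle4 are Groucho-type corepressors that silence the targets of DNA-binding factors. The age is given as 8.9 weeks in one label and 9 weeks in another. Cells of each genotype were pooled before RNA was taken, so each genotype is 1 library. The spread between mice was therefore not measured, and the differences between libraries are given without tests.

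Tle4 was at 5.80 FPKM in the Tle4cKO library, 11.0 in the library labelled Tle3cKO and 8.50 in WT. Tle3 was at 46.9, 70.7 and 38.6 FPKM in the same order, so that it was highest in the library labelled Tle3cKO, which is called by its label throughout. A mix-up of labels and a loss of some exons that leaves the gene's summed level in place cannot be told apart from these values. Every comparison with that library carries this doubt. A mix-up would involve another library too, so the comparison of Tle4cKO with WT is not free of it. Totals of FPKM were 598023, 569961 and 610714 in that order. Steps between the lowest values put the depth of the Tle4cKO library at 1.21 times and that of the library labelled Tle3cKO at 0.969 times that of WT. Of the sorted cells' own markers all 11 were present, with Fcgr1, which codes for CD64, at 39.2, 36.0 and 33.3 FPKM. Their summed level was 5761, 5395 and 5992 FPKM in Tle4cKO, the library labelled Tle3cKO and WT. Markers of other cells differed as well. The 11 B and plasma cell genes, all measured, summed to 355, 206 and 152 FPKM in the same order. The 17 epithelial genes, 6 of them at a mean of at least 1 FPKM, summed to 49.2, 10.6 and 4.81 FPKM, and the 10 glial and neuronal genes, 6 of them at that mean, to 15.2, 37.1 and 38.7 FPKM. The 15 stromal, endothelial and muscle genes summed to 297, 314 and 266 FPKM, with none of them at 0 in any library. The 8 dendritic cell genes, all measured, summed to 447, 346 and 419 FPKM, lowest in the library labelled Tle3cKO. This sum was mostly Ccr7, at 316, 216 and 305 FPKM. Of the 8, 5 were lower in that library than in WT and 3 higher. The 6 monocyte genes summed to 202, 183 and 199 FPKM, with Ccr2 at 28.3, 12.3 and 28.3 FPKM. Neutrophil genes, 6 of 9 at a mean of at least 1 FPKM, summed to 192, 196 and 194 FPKM, mostly S100a8 and S100a9, while Camp was listed at 0 in every library. Eosinophil and mast cell genes, 3 of 9 at that mean, summed to 28.9, 24.2 and 24.7 FPKM, mostly Kit, while Epx was listed at 0 in every library. The 14 T, NK and innate lymphoid genes, 13 of them with a row and 7 at that mean, summed to 359.9 FPKM, 371 and 358. This sum was mostly Il7r, at 332, 342 and 337 FPKM, which hides the other genes. Of the 13, 8 were higher and 5 lower in Tle4cKO than in WT, and 9 higher and 4 lower in the library labelled Tle3cKO. Lysosomal genes are used by all kinds of cells, and the part of such other cells in the members' differences was not tested. In pooled sorted cells, fewer cells of a type and less RNA per cell cannot be told apart.

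The members' promoters were read for the E-box, because the MiT/TFE factors are known to find lysosomal genes by an element of this kind. RefSeq windows of the GRCm38.p6 build, running from 250 bases before to 50 after each transcript start, were at hand for 31 of the 35 members. The 6 letters CACGTG, which read the same on both strands, were present in at least 1 window of 9 of those 31 members (29.0%). They were present for 8.09% of all 27025 genes with a promoter, and for 12.0% of the 8429 of them that reached a mean of 1 FPKM here. The longer TCACGTGA, which contains the 6 letters, was present for 3 members (Mcoln1, Atp6v0d1 and Atp6v1a), or 9.68%, against 1.12% of all genes and 2.34% of those at a mean of 1 FPKM. A match is a run of letters and not a shown site, and it does not tell which factor, if any, binds there. The absence of a match says only that the letters are not in the window.

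Lamp1, a heavily glycosylated protein of the lysosomal membrane, had the most matches among the members, with 4 in the 250 bases before its start. These bases are shown because all of its E-boxes lie close together in them, with the matches in capitals (GRCm38.p6, chr8:13158911-13159160, plus strand).
Lamp1: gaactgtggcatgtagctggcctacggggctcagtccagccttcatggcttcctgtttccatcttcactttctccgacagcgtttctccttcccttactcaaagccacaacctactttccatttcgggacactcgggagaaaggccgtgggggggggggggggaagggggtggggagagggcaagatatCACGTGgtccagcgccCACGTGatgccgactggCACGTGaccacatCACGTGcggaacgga

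One match for each of the other members that had one before the RefSeq start is shown in 30 bases, with the E-box in capitals, so that the flanks can be set side by side. Positions count from the RefSeq transcript start and give the first base of the match. In GENCODE M21 the genes Mcoln1, Atp6v1a, Naglu and Lgmn start further upstream, so by that annotation the matches shown for them lie inside the gene.
Mcoln1 (-45, chr8:3500462-3500491, plus strand): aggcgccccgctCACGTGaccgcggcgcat
Atp6v1a (-131, chr16:44139373-44139402, minus strand): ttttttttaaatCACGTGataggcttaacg
Atp6v0b (-36, chr4:117887348-117887377, minus strand): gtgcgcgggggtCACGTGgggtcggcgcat
Glb1 (-48, chr9:114401018-114401047, plus strand): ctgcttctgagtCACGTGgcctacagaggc
Gaa (-140, chr11:119267811-119267840, plus strand): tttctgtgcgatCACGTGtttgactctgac
Naglu (-73, chr11:101070009-101070038, plus strand): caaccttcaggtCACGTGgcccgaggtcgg
Lgmn (-49, chr12:102439124-102439153, minus strand): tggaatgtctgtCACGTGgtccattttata

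Mcoln1 and Atp6v0b each held 2 matches, and in Atp6v0d1 the match spanned the start itself, with its first base at -3. Lgmn had the letters in 1 of its 2 windows. The promoters of Tfeb, Tfe3 and Mitf and of the lipid enzymes and activators at hand (Psap, Lipa, Gm2a and Ppt1) held none.

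**Figure D1:**
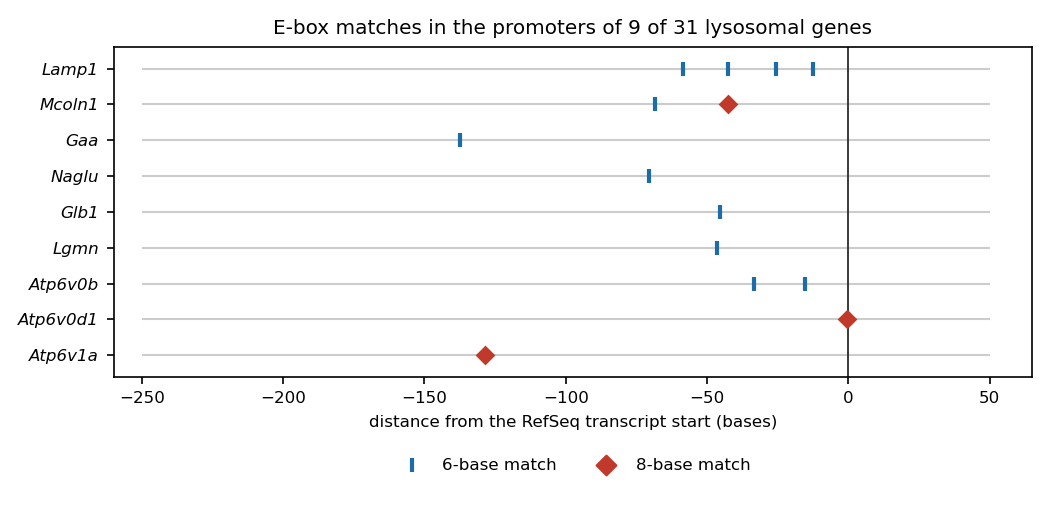
Positions of the E-box letters in RefSeq promoter windows of the 9 members that have them, as distance in bases from the transcript start (vertical line at 0). Bars are 6-base matches and diamonds 8-base matches; the first base of every match lies from 140 to 3 bases before the start, the match of Atp6v0d1 runs past the start, and Lamp1 has 4.

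By level, the members stood high among the genes of these macrophages. Their mean levels ran over 3 orders of size, with Psap at 3113 FPKM at the top and Atp6v0d2 at 3.15 at the bottom. The median member was at 103.8 FPKM, against 10.5 for all genes measured, and 20 of the 35 were among the highest 10% of genes. In all, 18 members had a mean of at least 100 FPKM, 15 lay at 10 to under 100, and the other two, Mitf and Atp6v0d2, lay lower. Summed over the 35 genes, the level was 10265 FPKM in Tle4cKO, 9560 in the library labelled Tle3cKO and 10571 in WT. These sums were 1.72%, 1.68% and 1.73% of the total of each library. Without Psap they were 7110, 6819 and 7129 FPKM, or 1.19%, 1.2% and 1.17%. That share was highest in the library labelled Tle3cKO and lowest in WT.

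The differences between libraries were small beside this range of levels. No member differed by 2-fold in any comparison. On the log2 scale of FPKM plus 1, which understates differences of low genes, 0.648% of all 11114 genes passed 2-fold between Tle4cKO and WT, 0.423% between the library labelled Tle3cKO and WT, and 0.729% between Tle4cKO and the library labelled Tle3cKO. At those shares fewer than 1 of 35 genes would pass, so a count of 0 says little about the members. At 1.5-fold, 0, 1 and 0 members passed in the same order of comparisons, where 2.91%, 2.68% and 3.03% of all genes did. The one was Atp6v0d2, which did not pass with a pseudocount of 5 and passed in Tle4cKO against WT too with a pseudocount of 0.1, equal totals or an equal upper quartile. The highest library exceeded the lowest by a median of 1.12 times over the members and 1.16 times over all genes measured. These medians were not matched by level, and the members lay higher than most genes. By the ratio of highest to lowest library 15 members stayed under 1.1 and 15 lay from 1.1 to under 1.25. The other 5 reached 1.25 or more, and these were Hexa, Psap, Ppt1, Tfe3 and Atp6v0d2.

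**Figure D2:**
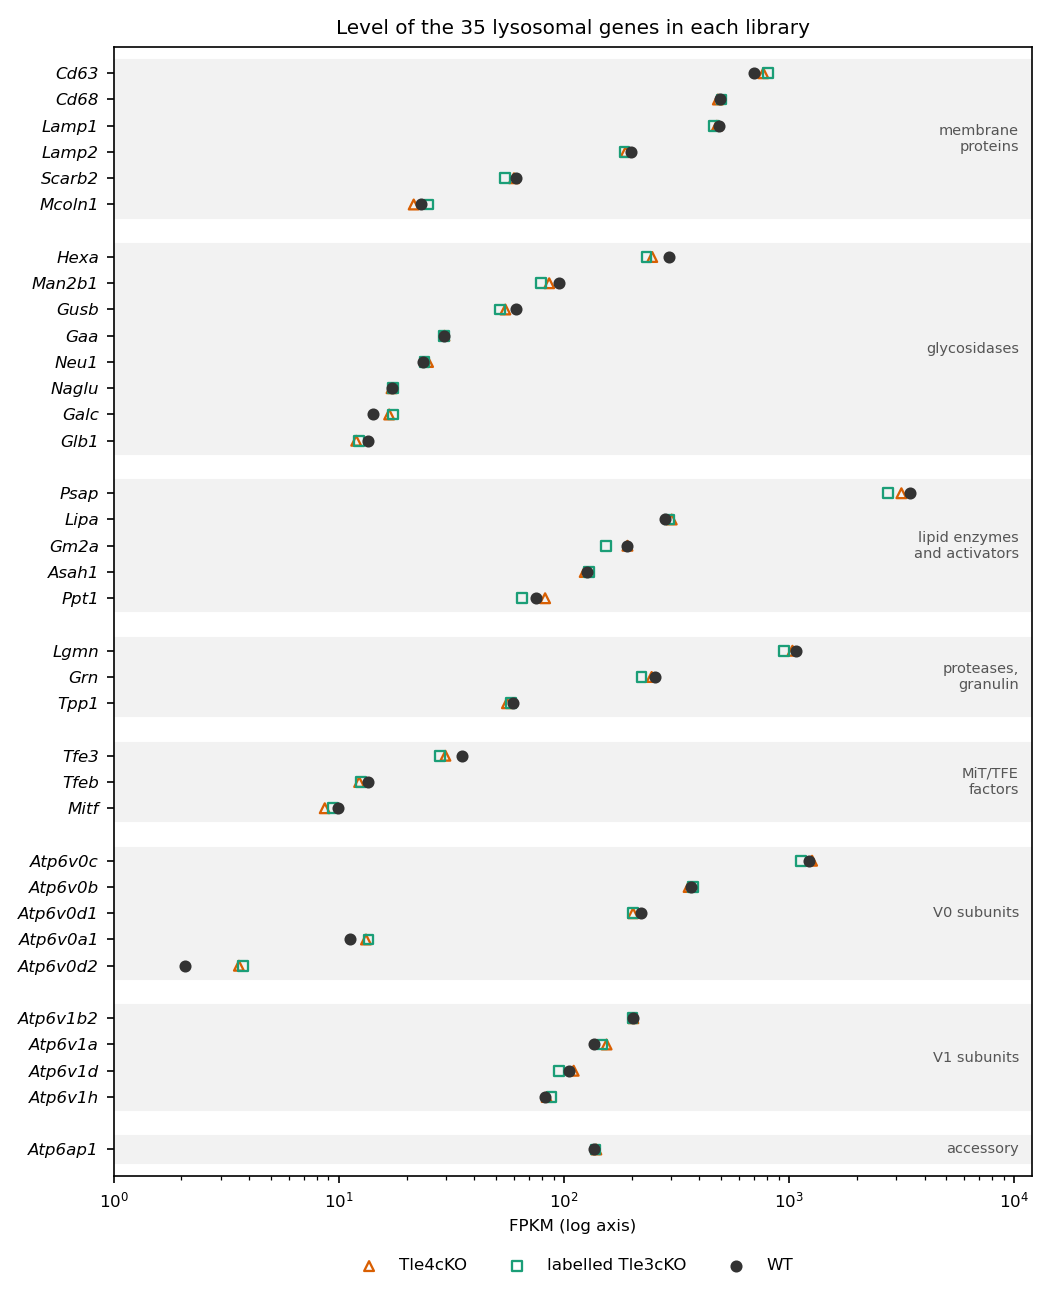
FPKM of the 35 members in each library on a log axis, grouped by role and ordered by mean level within each role. For most members the 3 symbols nearly coincide; Atp6v0d2, at 2.08 FPKM in WT and above 3.5 in the other libraries, is the clearest exception.

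The membrane proteins were nearly level. Cd63, a tetraspanin of lysosomes and secretory granules, was at 769 FPKM in Tle4cKO, 804 in the library labelled Tle3cKO and 702 in WT, highest in the library labelled Tle3cKO and lowest in WT. Its log2 ratios to WT were 0.13 in Tle4cKO and 0.20 in the library labelled Tle3cKO. Cd68, the macrophage sialomucin often used to stain these cells, was at 483, 501 and 495 FPKM in the same order of libraries, with log2 ratios of -0.036 and 0.016. Lamp1 was at 478 FPKM in Tle4cKO, 466 in the library labelled Tle3cKO and 490.0 in WT. Lamp2, its relative with a role in autophagy carried out by chaperones, was at 188, 186 and 198 FPKM. Both Lamp genes were thus highest in WT by under 1.1 times, with log2 ratios between -0.089 and -0.036, although for the library labelled Tle3cKO the ratios were 0.027 for Lamp1 and 0.010 for Lamp2 once FPKM was rescaled to equal totals in every library. The ratio of Lamp1 to Lamp2 was 2.54 in Tle4cKO, 2.51 in the library labelled Tle3cKO and 2.48 in WT. Scarb2, the receptor that carries glucocerebrosidase to the lysosome, was at 60.0, 54.6 and 61.0 FPKM. Mcoln1, a calcium channel of the lysosomal membrane, was at 21.5 FPKM in Tle4cKO, 25.0 in the library labelled Tle3cKO and 23.2 in WT, lowest in Tle4cKO.

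Among the enzymes that take sugars off glycolipids and glycoproteins, the 3 most abundant were lower in both libraries of floxed mice than in WT. Hexa (ENSMUSG00000025232.8, chromosome 9, 59539540 to 59565109, mm10), the alpha subunit of beta-hexosaminidase A, was at 247 FPKM in Tle4cKO, 233 in the library labelled Tle3cKO and 292 in WT, log2 ratios to WT of -0.24 and -0.32. Man2b1, the lysosomal alpha-mannosidase, was at 86.0, 79.1 and 95.3 FPKM, log2 ratios of -0.15 and -0.27. Gusb, beta-glucuronidase, was at 55.0, 51.8 and 61.0 FPKM, log2 ratios of -0.15 and -0.23. In all 3 WT was highest and the library labelled Tle3cKO lowest. Galc, which removes galactose from galactosylceramide, ran the other way, at 16.8 FPKM in Tle4cKO, 17.4 in the library labelled Tle3cKO and 14.2 in WT, log2 ratios of 0.23 and 0.28. Glb1, the beta-galactosidase read as a sign of senescence, was at 12.0, 12.3 and 13.4 FPKM; the row of Tmppe covers the same positions, so reads of these genes may have been divided between them. The remaining genes differed by under 1.1 times between their highest and lowest library. Gaa, the acid alpha-glucosidase that digests glycogen, was at 29.5, 29.3 and 29.3 FPKM. Neu1, a sialidase, was at 24.9, 24.1 and 23.8 FPKM, and Naglu, which acts on heparan sulfate, was at 17.2, 17.5 and 17.3 FPKM.

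Psap (ENSMUSG00000004207.14, chromosome 10, 60277627 to 60302597, mm10) was the highest member and ranked 13 among all genes. It codes for prosaposin, the precursor of the saposins that lift sphingolipids out of membranes for their hydrolases. Its level was 3156 FPKM in Tle4cKO, 2741 in the library labelled Tle3cKO and 3443 in WT, log2 ratios to WT of -0.13 and -0.33, the lowest log2 ratio of any member in the library labelled Tle3cKO. Gm2a, the activator that presents GM2 ganglioside to beta-hexosaminidase A, was at 192 FPKM in Tle4cKO, 154 in the library labelled Tle3cKO and 190.2 in WT. Its log2 ratios were 0.010 and -0.30. Ppt1, which removes palmitate from proteins, was at 82.5, 65.3 and 75.2 FPKM, log2 ratios of 0.13 and -0.20. Gm2a and Ppt1 were thus lowest in the library labelled Tle3cKO and highest in Tle4cKO, and they had the highest log2 ratios of the members between these libraries, 0.32 for Gm2a and 0.33 for Ppt1. Lipa, the acid lipase that frees cholesterol from lipoproteins, was at 301, 294 and 282 FPKM. Asah1, acid ceramidase, was at 124, 129.7 and 126 FPKM.

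Lgmn, an asparagine-specific protease, was at 1036 FPKM in Tle4cKO, 949 in the library labelled Tle3cKO and 1075 in WT, log2 ratios to WT of -0.054 and -0.18. Grn, the precursor of the granulins, was at 245, 221 and 253 FPKM, log2 ratios of -0.045 and -0.19. Tpp1, which clips tripeptides from protein ends, was at 55.9, 58.4 and 59.3 FPKM. All 3 were highest in WT, but with equal totals the log2 ratio of Tpp1 for the library labelled Tle3cKO to WT was 0.077, of the other sign.

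Taking the 16 luminal enzymes and activators as 1 group, 10 were lower in Tle4cKO than in WT (median log2 ratio -0.037), and 8 with equal totals (-0.0067). In the library labelled Tle3cKO 10 were lower than in WT (median -0.15), and 9 with equal totals (-0.053). Between Tle4cKO and the library labelled Tle3cKO, 5 of the 16 were lower in Tle4cKO (median 0.066), and 8 with equal totals (-0.0017). Of all genes, 50.6%, 52.4% and 47.6% were lower in these comparisons, and 43.7%, 31.6% and 63.6% with equal totals. The summed level of the 16 was 5680 FPKM in Tle4cKO, 5076 in the library labelled Tle3cKO and 6049 in WT. Psap alone made up most of each sum, at 3156, 2741 and 3443 FPKM. On the FPKM as deposited, abundant genes in general leaned the same way in the library labelled Tle3cKO. Of the 846 genes at a mean of at least 100 FPKM, 73.5% were lower there than in WT and their median log2 ratio was -0.065, and the 18 members in that range had 11 lower and a median of -0.081. Psap, Gm2a and Ppt1 were lowest in that library. So were the summed macrophage, monocyte, dendritic cell, and eosinophil and mast cell genes given earlier. The summed neutrophil genes, T, NK and innate lymphoid genes, and stromal, endothelial and muscle genes were highest there. Of the 11 macrophage genes 8 were lower there than in WT and 3 higher. The dendritic cell sum was mostly Ccr7, and of its 8 genes 5 were lower there than in WT and 3 higher. The part of any of these cells in these levels was not tested. In the range of 10 to under 100 FPKM the medians were -0.025 for 4849 genes and -0.021 for 15 members. These ranges of level were not taken with equal totals. That scaling moved the median of all genes for this comparison from -0.011 to 0.082, so the lean of abundant genes depends on it.

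The MiT/TFE factors were present at modest levels, with Tfe3 highest. Tfe3 was at 29.8 FPKM in Tle4cKO, 28.1 in the library labelled Tle3cKO and 35.2 in WT, log2 ratios to WT of -0.23 and -0.31. Tfeb, which moves to the nucleus on starvation, was at 12.3, 12.6 and 13.5 FPKM, log2 ratios of -0.12 and -0.10. Mitf was at 8.67, 9.42 and 9.90 FPKM, log2 ratios of -0.17 and -0.065, and the last of these was 0.027 with equal totals. WT was highest for all 3 factors, except for Mitf against the library labelled Tle3cKO under that scaling. These proteins are controlled largely by where they sit in the cell, which RNA levels do not show.

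Among the proton pump's parts, Atp6v0d2 stood out. It codes for the form of the V0 d subunit known from osteoclasts and some macrophages, and lay at 3.60 FPKM in Tle4cKO, 3.77 in the library labelled Tle3cKO and 2.08 in WT (ENSMUSG00000028238.6, chromosome 4, 19876841 to 19922605, mm10). WT was lowest, and the log2 ratios to WT were 0.58 and 0.63, the highest of any member in both comparisons. Over the pseudocounts and scalings tried they ran from 0.28 to 0.76 in Tle4cKO and from 0.31 to 0.83 in the library labelled Tle3cKO. It was also the 1 member outside the range that holds the middle 95% of all genes. That range ran from -0.48 to 0.45 for Tle4cKO and from -0.44 to 0.49 for the library labelled Tle3cKO. The range is set by genes of all levels and by definition leaves the rest of them outside. So 1 of 35 members outside it is no more than the share of all genes. Atp6v0d2 was also the member with the lowest level, and the counting error behind values this low is not known. Its partner Atp6v0d1, the d subunit found in most cells, was at 203, 203 and 220.3 FPKM, log2 ratios of -0.12 in both comparisons. The d2 form therefore made up 1.75% of the level of both forms in Tle4cKO, 1.83% in the library labelled Tle3cKO and 0.937% in WT. Atp6v0a1, one of several forms of the V0 a subunit, was higher than in WT too, at 13.2, 13.6 and 11.3 FPKM, log2 ratios of 0.21 and 0.25. Tcirg1, another a subunit and not among the 35, was far higher, at 190.1, 173 and 194 FPKM.

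Atp6v0c, the proteolipid of the rotating ring, was the highest pump gene at 1266 FPKM in Tle4cKO, 1131 in the library labelled Tle3cKO and 1231 in WT. A row named Atp6v0c-ps2 was listed by the authors at the same positions of chromosome 17, at 170.2, 218 and 216 FPKM. GENCODE M21 places that pseudogene on chromosome 6, so it is not known which copy the row measures; reads may have been divided between the rows, and both rows and their sum are uncertain. Summed over both rows the level was 1436, 1349 and 1446 FPKM, and the log2 ratio of Tle4cKO to WT was -0.010 in place of 0.041. For the library labelled Tle3cKO to WT it was -0.10 in place of -0.12, and for Tle4cKO to the library labelled Tle3cKO 0.090 in place of 0.16. Atp6v0b, a second ring proteolipid, was at 358, 375 and 367 FPKM.

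In the V1 sector, Atp6v1a and Atp6v1b2 form the ring that splits ATP. Atp6v1b2 was the most even pump gene, at 203 FPKM in Tle4cKO, 202 in the library labelled Tle3cKO and 203 in WT. Atp6v1a was at 155, 148 and 136 FPKM, log2 ratios to WT of 0.19 and 0.12, with WT lowest. The ratio of Atp6v1a to Atp6v1b2 was 0.761, 0.734 and 0.670 in the same order. Atp6v1d, in the central stalk, was at 111, 95.2 and 106 FPKM, and Atp6v1h, a regulatory subunit, at 83.9, 88.0 and 82.4 FPKM. Atp6ap1, an accessory protein needed for assembly, was at 139, 138 and 136 FPKM. Of the 10 pump members, 2 were lower in Tle4cKO than in WT (median log2 ratio 0.037), 4 were lower in the library labelled Tle3cKO than in WT (0.025) and 4 were lower in Tle4cKO than in the library labelled Tle3cKO (0.0063). Of all genes, 50.6%, 52.4% and 47.6% were lower in the same comparisons. With equal totals the pump counts were 2, 3 and 8 and the medians 0.068, 0.12 and -0.063, beside 43.7%, 31.6% and 63.6% of all genes lower. Summed, the pump members gave 2535 FPKM in Tle4cKO, 2397 in the library labelled Tle3cKO and 2494 in WT. Atp6v0c, whose row is uncertain, made up 1266, 1131 and 1231 FPKM of these sums, and it too was lowest in the library labelled Tle3cKO.

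Over all 35 members, 20 were lower in Tle4cKO than in WT, where 50.6% of all genes were lower. The members' median log2 ratio was -0.029 beside -0.0026 for all genes. Between the library labelled Tle3cKO and WT, 20 were lower as well, where 52.4% of all genes were lower, with medians of -0.065 and -0.011. Tle4cKO against the library labelled Tle3cKO had 14 lower, beside 47.6% of all genes, with medians of 0.014 and 0.0093. Both comparisons with WT use the same WT library. The directions depended on the scaling: with equal totals the members lower were 17, 15 and 23 in the 3 comparisons, and 48.6%, 42.9% and 65.7% in place of 57.1%, 57.1% and 40%. Under that scaling the share of all genes lower was 43.7%, 31.6% and 63.6%, and the median of all genes moved to 0.026, 0.082 and -0.055.

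**Figure D3:**
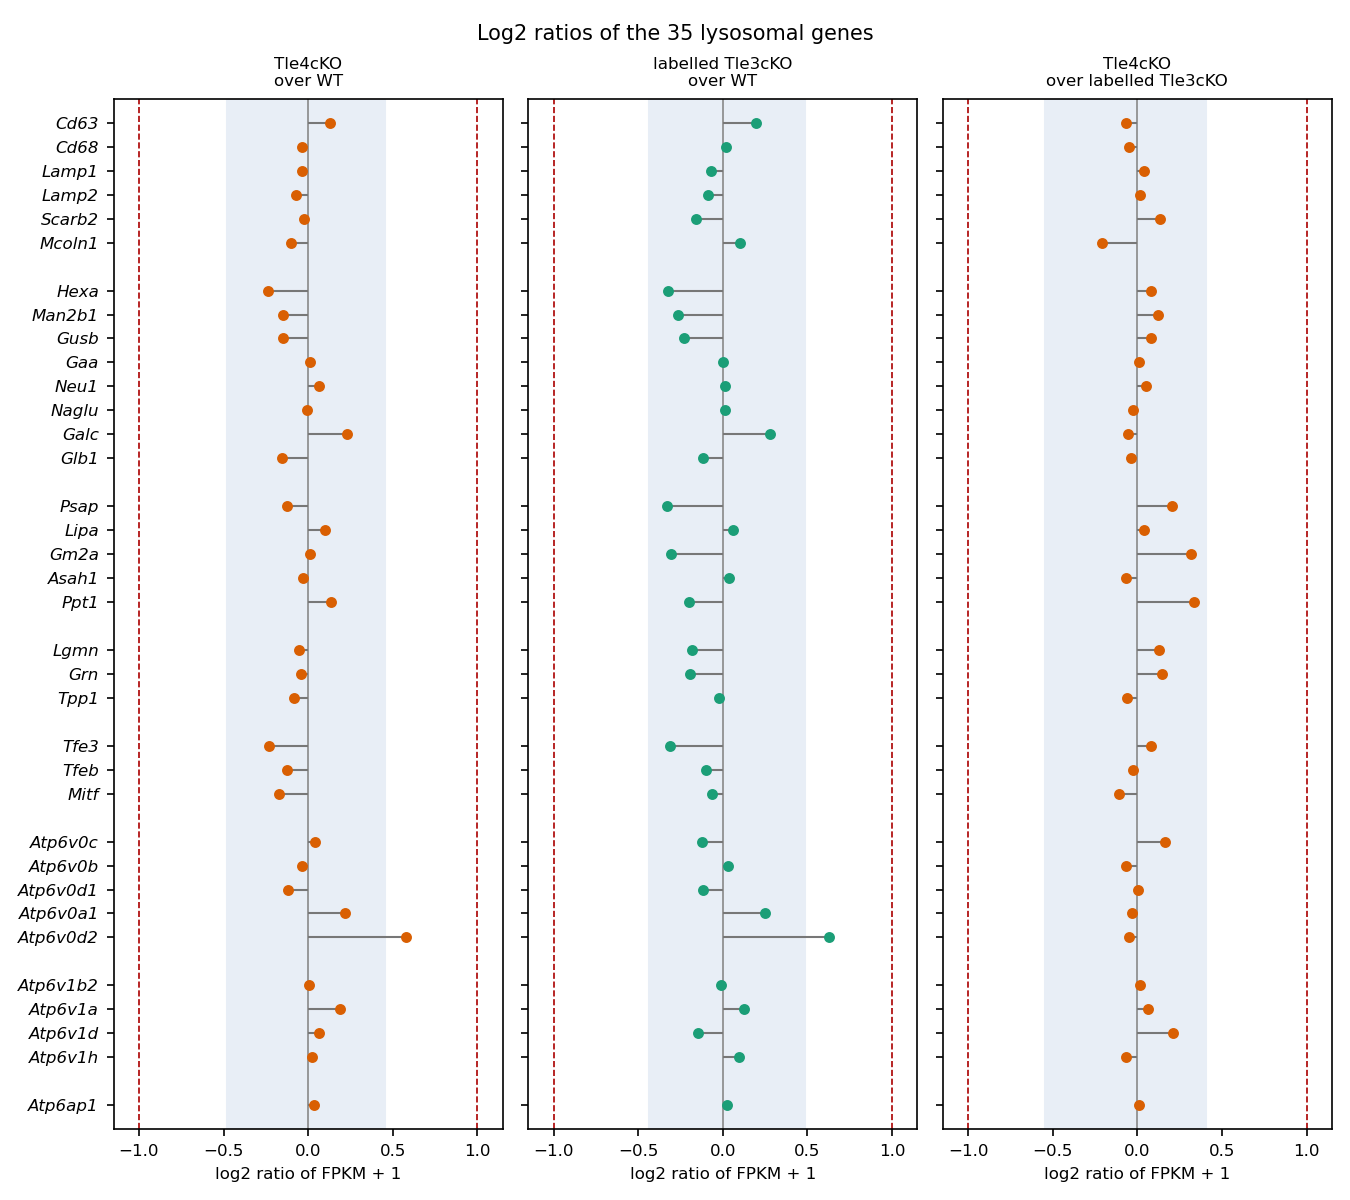
Log2 ratios of FPKM plus 1 for each member in the 3 comparisons; dashed lines mark 2-fold and the shaded band holds the middle 95% of all genes measured. Every member lies inside the dashed lines, and Atp6v0d2 is the only one outside the band in the comparisons with WT.

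**Figure D4:**
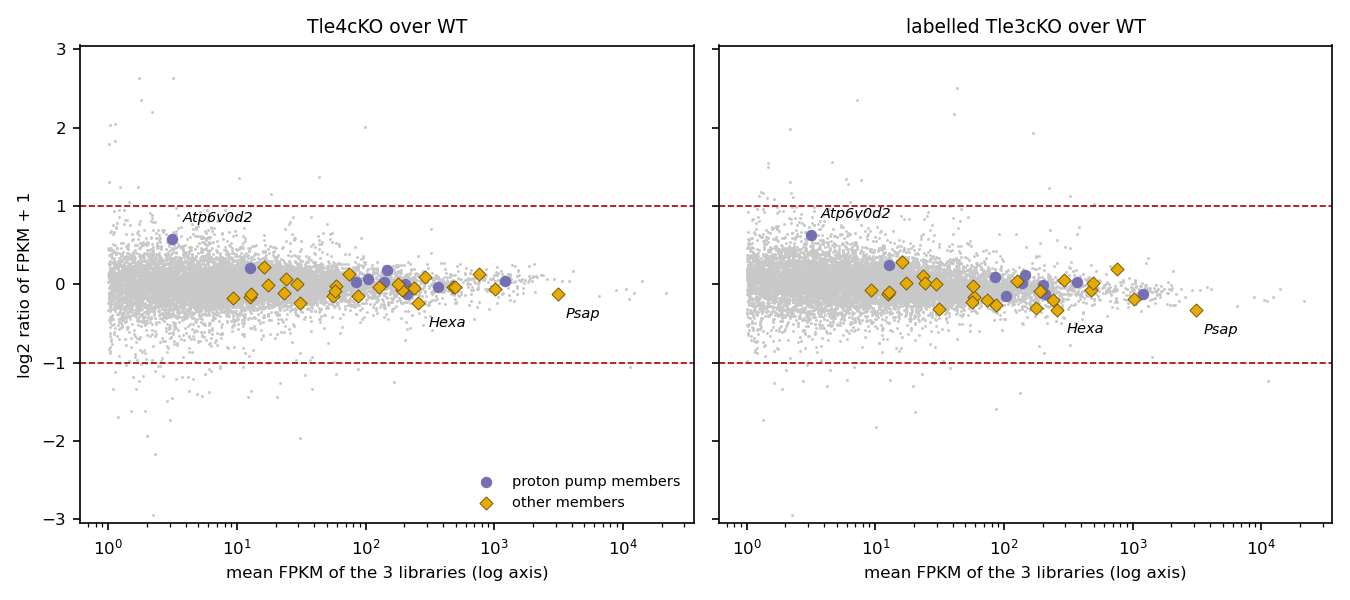
Log2 ratio against mean FPKM (log axis) for all genes (grey), proton pump members (circles) and other members (diamonds), for Tle4cKO over WT and for the library labelled Tle3cKO over WT; dashed lines mark 2-fold, and 5 and 3 genes beyond a log2 ratio of 3 in size are not drawn. Atp6v0d2, the member with the lowest mean, 3.15 FPKM, has the highest ratio among the members in both panels, and Psap, the member with the highest mean, lies below 0 in both.

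Lists of further lysosomal genes were described in the same way, with the 2 highest and the 2 most different genes of each list named. On the log2 scale of FPKM plus 1, none of their measured genes reached 2-fold in any comparison. Of all genes, 0.648%, 0.423% and 0.729% did. Igf2r in Tle4cKO against WT and Ctse in Tle4cKO against the library labelled Tle3cKO passed 1.5-fold, where 2.91% and 3.03% of all genes did. Ctse, at 1.89 FPKM against 0.863, lay near the filter of 1 FPKM and would pass 2-fold without the pseudocount. The counts lower than in WT given for each list stand beside 50.6% of all genes in Tle4cKO and 52.4% in the library labelled Tle3cKO. They turned with the scaling: with equal totals all 7 lists had a median log2 ratio above 0 for the library labelled Tle3cKO against WT, from 0.013 for the hydrolases to 0.085 for the sorting genes, and for all genes it was 0.082. The autophagy genes lower there were then 4 of 20, the nutrient-sensing genes 8 of 21 and the cathepsins 3 of 12, beside 31.6% of all genes. In Tle4cKO against WT the membrane and transport genes turned to a median of 0.013, with 12 of 28 lower, and the other 6 medians kept their sign. Of 33 other lysosomal hydrolases 32 were measured, with 17 lower in Tle4cKO than in WT and 20 lower in the library labelled Tle3cKO than in WT (medians -0.037 and -0.080). Plbd1, a phospholipase B-like protein, was at 489.5 FPKM in Tle4cKO, 436 in the library labelled Tle3cKO and 523 in WT. Acp5, tartrate-resistant acid phosphatase, was at 371, 390 and 420 FPKM. The most different were Ppt2, a thioesterase, at 9.64, 6.70 and 10.2 FPKM, and Hyal2, a hyaluronidase, at 6.02, 5.36 and 3.88 FPKM. Hyal2 was lowest in WT and Ppt2 lowest in the library labelled Tle3cKO.

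All 28 other lysosomal membrane and transport genes were measured, with 15 and 16 lower than in WT in Tle4cKO and in the library labelled Tle3cKO (medians -0.017 and -0.041). Laptm5, a membrane protein of blood cells, was at 750.0, 665 and 780 FPKM, and Slc15a3, a peptide and histidine carrier, at 569, 579 and 626 FPKM. Tpcn1, a cation channel, was at 12.0, 12.8 and 9.43 FPKM, lowest in WT, and Sidt2 was at 48.1, 43.6 and 53.4 FPKM, highest in WT. Of 19 other V-ATPase subunit and assembly genes 12 were measured, with 4 and 8 lower (medians 0.062 and -0.032). Atp6v1f was at 318, 293 and 299 FPKM, Atp6v0e at 283, 257 and 263, and the assembly factors Ccdc115 at 15.6, 12.8 and 14.1 and Tmem199 at 11.1, 10.4 and 9.16.

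Genes that sense nutrients at the lysosome had 13 and 15 of 21 lower in Tle4cKO and in the library labelled Tle3cKO than in WT (medians -0.087 and -0.062). Rragd, one of the Rag GTPases that bring mTORC1 and the MiT/TFE factors to the lysosome, was at 2.37, 2.35 and 1.49 FPKM, lowest in WT, while its relative Rragc was at 107, 103 and 97.7. Rheb, the GTPase that switches mTORC1 on, was at 100.3, 103 and 110.5 FPKM, and the calcineurin subunit Ppp3r1 at 83.5, 73.6 and 87.4. Sorting and delivery genes had 9 and 11 of 22 lower (medians 0.015 and -0.013). Igf2r, the large mannose 6-phosphate receptor that carries new hydrolases to the lysosome, was at 8.26 FPKM in Tle4cKO, 6.84 in the library labelled Tle3cKO and 4.65 in WT. Its log2 ratios to WT were 0.71 and 0.47, with WT lowest. M6pr, the small mannose 6-phosphate receptor, was far more abundant and even, at 278, 257 and 276 FPKM. The sorting receptor Sort1 was at 1.55, 1.03 and 2.03 FPKM, and Rab7, the GTPase of late endosomes, at 368, 343 and 339 FPKM.

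Autophagy genes had 8 and 15 of 20 measured lower (medians 0.0077 and -0.064). Sqstm1, the cargo adaptor p62, was at 1742, 1631 and 1724 FPKM and Gabarap at 475, 446 and 434. The most different were Optn, at 6.52, 6.21 and 5.27 FPKM, and Atg5, at 12.9, 15.6 and 13.6. The cathepsins, kept out of the 35, had 7 and 9 of 12 measured lower (medians -0.055 and -0.015). Ctss was at 1275, 1212 and 1469 FPKM, Ctsz at 959, 1007 and 1007, Ctsl at 278, 356 and 256 and Ctse at 1.89, 0.863 and 1.30. The E-box letters were present in promoters of 4 of 9 cathepsin genes, 7 of 16 sorting genes, 6 of 20 nutrient-sensing genes, 3 of 15 other pump genes, 5 of 22 other membrane genes, 4 of 21 other hydrolases and 3 of 16 autophagy genes at hand. Beside these counts, they were present for 8.09% of all genes with a promoter and 12% of those at a mean of 1 FPKM.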

How the data were processed

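The authors deposited FPKM per gene, 1 table per library, per the file headers. Per the submitters' processing notes, TopHat2 2.1.0, Cufflinks 2.2.1 and the build mm10 were used, with no roles given; strand and read numbers: not given in the sources used here. FPKM is scaled to depth, so very abundant genes can lower the rest: the top 10 took 17.0% of all FPKM in Tle4cKO, 16.6% in the library labelled Tle3cKO and 18.9% in WT. Absolute depth is unknown, so no counting interval is given; relative depth came from 1846 to 1952 genes under 0.3 FPKM in both libraries.

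Log2 ratios were taken after adding 1 FPKM as a pseudocount, for genes whose 3 libraries averaged 1 FPKM or more, and counts past 2-fold were taken. A test was not possible from single libraries. Groups came from the sample titles. Identifiers and coordinates are from GENCODE M21, promoters from RefSeq; protein sequences were not used here. Steps were tested on simulated data. Every member was named, with, from each other list, the 2 highest genes and the 2 most different; Tcirg1 and the single marker genes were named after their values were seen. Members and lists were chosen with earlier results of these data known. Alternatives were pseudocounts of 0.1 and 5, no filter, filters at 5 FPKM and on the 2 libraries compared, 4 scalings and a 1.5-fold threshold. Python 3.11.15, numpy 2.4.6, pandas 2.3.3 and matplotlib 3.10.9 were used.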

Additional observations from a re-analysis of the deposited data

How the results depend on the processing

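No paired analysis was possible because each genotype is 1 library. In every setting no member passed 2-fold. At 1.5-fold 1 member, Atp6v0d2, passed in the library labelled Tle3cKO against WT, but not with a pseudocount of 5, and the filter at 5 FPKM left it out. In Tle4cKO against WT it passed only with a pseudocount of 0.1, equal totals or an equal upper quartile. With equal totals the members' median log2 ratio was 0.0014 for Tle4cKO against WT, 0.027 for the library labelled Tle3cKO against WT and -0.055 for Tle4cKO against the library labelled Tle3cKO, where 23 members were then lower. Without the 100 highest genes in the totals this last median was -0.016. The other medians stayed within 0.05 of those reported and kept their sign. Over these settings, with the Atp6v0c rows kept apart, 32, 30 and 26 of the 35 members kept their sign in the 3 comparisons in that order. Left out of the filter, the library labelled Tle3cKO did not alter the counts of members for Tle4cKO against WT. Summing both Atp6v0c rows, chosen after seeing the data, turned its log2 ratio for Tle4cKO against WT to -0.010, and gave 0.090 for Tle4cKO against the library labelled Tle3cKO. Depth limits Atp6v0d2 and other low genes most, and no spread between mice was measured.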
